A study of Mus musculus with 4 samples.

Results

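Chemokine ligands are small secreted proteins that guide leukocytes by binding to G protein-coupled receptors. The 8 ligand genes described here were taken as a fixed list, of which *Ccl3*, *Ccl4*, *Ccl5* and *Xcl1* are listed as made by T cells and *Ccl25*, *Ccl28*, *Cxcl9* and *Cxcl10* as made by the epithelium. All 8 were among the 19339 genes of the expression tables, and all 8 passed the filter for testing among 12009 genes in all, *Cxcl9* only through the replicate 1 libraries. RNA-seq was performed on TCRαβ+CD8αα+ intraepithelial lymphocytes (IELs) of the mouse small intestine, which are unconventional T cells that live between the epithelial cells of the gut and were sorted as CD45+CD4-TCRβ+CD8α+CD8β- cells. The 2 control libraries came from C57BL/6 mice with loxP-flanked *Kdm6b* alleles (Kdm6bfl/fl), and the 2 libraries labelled Kdm6b-deficient came from mice that also carry a *CD4Cre* transgene (Kdm6bfl/fl-CD4Cre), which deletes the H3K27 demethylase gene *Kdm6b* in T cells from a late double-negative thymocyte stage onward. Both groups share the floxed alleles, and each library holds RNA pooled from several mice of a genotype. The labels name no treatment, and the age of the mice is not given in the sources used here. The labels number the libraries replicate 1 and replicate 3 in each group.

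In the gut, CCL25 is made by epithelial cells of the small intestine and attracts T cells and their precursors that carry CCR9. CCL28 is a mucosal ligand of CCR10 and, more weakly, CCR3. CCL3 and CCL5 bind CCR1. CCL3, CCL4 and CCL5 are released by activated cytotoxic T cells and NK cells, as is XCL1, whose receptor XCR1 marks cross-presenting dendritic cells. CXCL9 and CXCL10 are induced by interferon γ in many cell types, among them epithelial cells and macrophages, and act through CXCR3.

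The values are FPKM, fragments normalised to transcript length and to the number of mapped fragments, which are scaled to length and so can be compared between genes. The total number of reads is not known, and the relative depth, read from the smallest steps between low values, was within 0.99 to 1.003 in 3 libraries and 0.82 in replicate 3 labelled Kdm6b-deficient. *Kdm6b* itself had 16.5 and 16.0 FPKM in the controls and 18.2 and 11.1 FPKM in the pair labelled Kdm6b-deficient, so it was not lower in replicate 1 of that label, but gene-level FPKM cannot tell reads of the deleted exons from those of the rest of the gene. The markers of T cells were lower, and those of epithelium higher, in every other library than in control replicate 1. Each of the 10 T cell markers with a value (*Cd3g*, *Lck* and *Cd3e* had the highest means) was highest in control replicate 1, and their summed FPKM was 0.81, 0.78 and 0.57 of that library in control replicate 3 and in replicates 1 and 3 labelled Kdm6b-deficient. The 20 epithelial markers other than *Reg3b* and *Reg3g* summed to 3.16, 2.83 and 7.81 times the level of control replicate 1 in the same order, and all 22 epithelial markers were lowest in control replicate 1. Myeloid markers ranged over 0.62, 1.11 and 1.36 times, led by *Lyz2* (253 to 626 FPKM) and the complement genes *C1qb* and *C1qa*. Goblet and Paneth cell markers summed to 1268 to 14106 FPKM, B cell markers to 31.6 to 84.8 FPKM, and stromal and endothelial markers to 14.4 to 19.0 FPKM. The defining marker *Cd8b1* of conventional CD8 T cells stayed between 0 and 1.64 FPKM, while *Cd4* had 30.6 and 30.5 FPKM in both replicate 1 libraries and 10.1 and 3.17 FPKM in the replicate 3 libraries of the control and Kdm6b-deficient labels.

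Of the promoters, those of 3 ligands are shown, because *Ccl25* was the only ligand whose groups did not overlap and because *Cxcl9* and *Cxcl10* lie side by side and took their highest and lowest values in the same libraries. Each sequence is the 250 bases upstream of a RefSeq transcription start on GRCm38.p6, read 5′ to 3′ on the gene's strand. *Cxcl9* lies on the minus strand of chromosome 5 (chr5:92328080-92328329 for the window shown), *Cxcl10* on the same strand (chr5:92348890-92349139) with 18.6 kb and 0 other protein-coding genes between them, and *Ccl25* on the plus strand of chromosome 8 with 2 starts, one distal (chr8:4324960-4325209) and one proximal (chr8:4349338-4349587). Capitals mark matches on either strand to the NF-κB motif, the interferon-stimulated response element (GAAANNGAAA), the AP-1 motif (TGANTCA) or the gamma-activated sequence (TTCNNNGAA).
Cxcl9: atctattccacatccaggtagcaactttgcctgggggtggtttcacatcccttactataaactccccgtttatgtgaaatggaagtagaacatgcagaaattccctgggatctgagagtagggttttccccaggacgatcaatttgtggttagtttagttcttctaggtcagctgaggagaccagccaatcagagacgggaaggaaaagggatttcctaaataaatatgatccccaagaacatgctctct
Cxcl10: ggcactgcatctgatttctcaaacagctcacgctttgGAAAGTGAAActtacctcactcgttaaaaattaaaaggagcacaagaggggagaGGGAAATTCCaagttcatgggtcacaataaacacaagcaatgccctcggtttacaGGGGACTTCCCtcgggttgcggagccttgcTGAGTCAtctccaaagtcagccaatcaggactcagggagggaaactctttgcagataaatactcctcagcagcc
Ccl25 distal: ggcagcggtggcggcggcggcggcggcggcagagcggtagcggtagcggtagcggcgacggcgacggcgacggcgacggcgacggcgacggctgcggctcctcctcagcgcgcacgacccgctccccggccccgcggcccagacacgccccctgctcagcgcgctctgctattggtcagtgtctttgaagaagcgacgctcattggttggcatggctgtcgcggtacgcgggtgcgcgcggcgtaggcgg
Ccl25 proximal: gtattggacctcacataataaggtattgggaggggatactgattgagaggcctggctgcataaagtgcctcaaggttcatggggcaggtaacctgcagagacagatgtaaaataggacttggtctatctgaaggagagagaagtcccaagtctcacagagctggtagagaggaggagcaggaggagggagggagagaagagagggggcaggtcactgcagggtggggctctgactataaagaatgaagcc

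The *Cxcl10* window held an interferon-stimulated response element at 213 to 204 bases before the start, a motif found in 2.98% of 32851 windows of this length. It also held NF-κB matches at 159 to 150 and at 104 to 94 bases before the start, the latter being 2 overlapping matches, where 7.25% of windows hold at least 1. An AP-1 match stood at 74 to 68 bases before the start, as in 6.75% of windows. None of the 4 motifs matched in the *Cxcl9* window, in either *Ccl25* window or in the windows of *Ccl3*, *Ccl28* and *Xcl1*. The gamma-activated sequence, which none of them held, is found in 7.02% of all windows. The distal *Ccl25* window was 74.8% G and C, against 51.6% in the proximal one. *Ccl4* and *Ccl5* had no window in the table used.

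*Ccl5* was by far the most abundant of the chemokine ligands, and the levels of the others spread widely below it on the FPKM scale. *Ccl5* (Entrez 20304, chromosome 11, 83525778 to 83530518) stood at place 7 of all genes in control replicate 1, at 16 in control replicate 3, and at 13 and 34 in replicates 1 and 3 labelled Kdm6b-deficient. It made up 81.4%, 71.8%, 70.3% and 59.6% of the summed FPKM of 35 chemokine ligand genes in these libraries, in the same order. Of the 8 ligands *Xcl1* came next with a mean of 541 FPKM over the 4 libraries, followed by *Ccl25* (131), *Ccl4* (108), *Ccl3* (48.0), *Cxcl10* (35.4), *Ccl28* (6.48) and *Cxcl9* (1.23), while other chemokine ligands, such as *Cxcl2* (50.2) and *Ccl6* (42.6), stood between them. Of the neighbours in this order, *Ccl25* and *Ccl4*, *Ccl3* and *Cxcl10*, and *Ccl28* and *Cxcl9* had ranges that overlapped over the libraries. *Ccl25* was above *Ccl4* in 2 of 4 libraries, *Ccl3* above *Cxcl10* in 3 of 4, and *Ccl28* above *Cxcl9* in all 4.

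**Figure D1:**
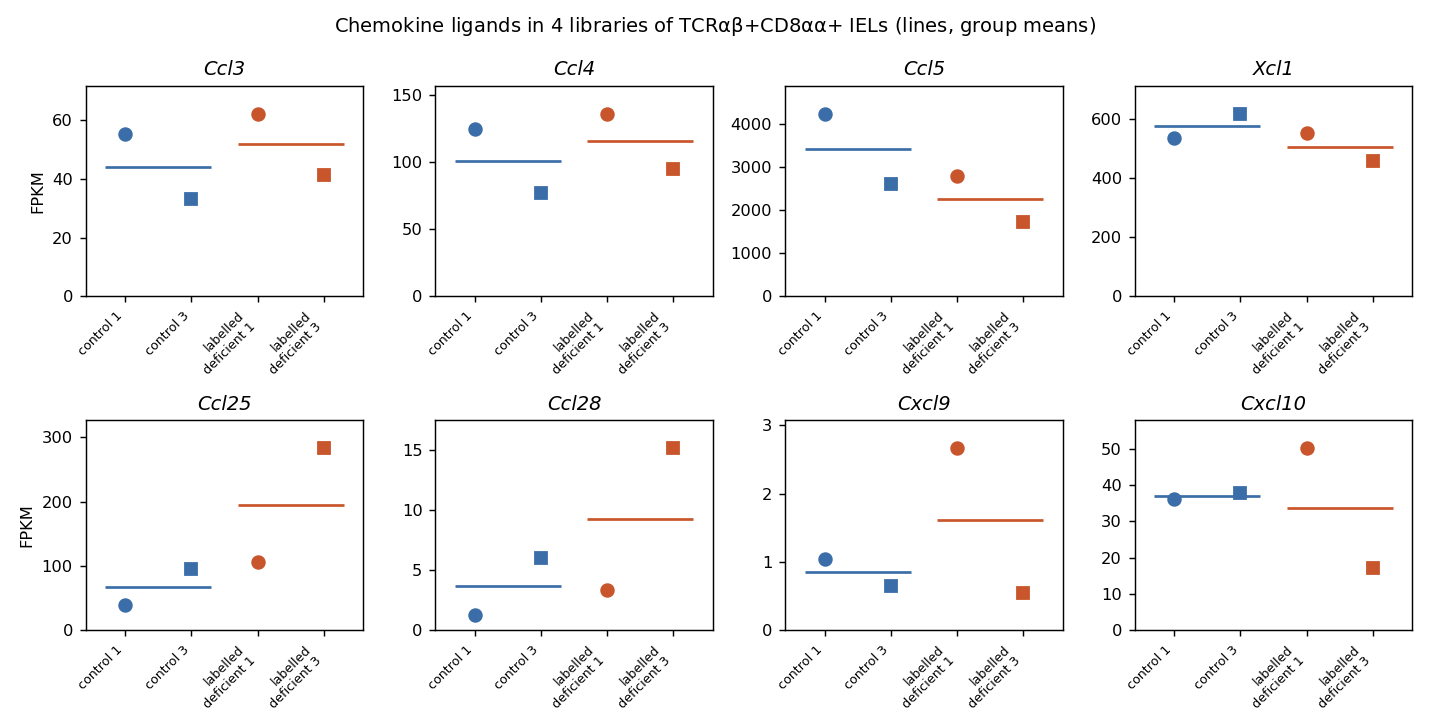
FPKM (linear axes from 0) of each chemokine ligand in the control libraries (blue) and the libraries labelled Kdm6b-deficient (orange), with circles for replicate 1, squares for replicate 3 and lines for group means. Only for *Ccl25* do both orange points lie above both blue points, and *Ccl3*, *Ccl4* and *Ccl5* are higher in replicate 1 than in replicate 3 of either group.

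The comparison of the 2 groups asks whether these transcripts differ when *Kdm6b* is deleted in T cells. None of the 8 ligands passed an adjusted p of 0.05 in limma. Of all 12009 genes tested 0 (0%) passed, while 642 (5.35%) had an unadjusted p under 0.05, among them 1 ligand, *Ccl25*. Fold changes are given on the log2(FPKM + 1) scale with their standard error (SE), as the libraries labelled Kdm6b-deficient over the controls. The smallest two-sided p that an exact permutation test can reach with n = 2 in each group is 0.333. The groups did not overlap for 1 of the 8 ligands, which was higher in both libraries labelled Kdm6b-deficient, and this was the case for 18.4% of all genes tested in that direction and for 18.6% in the other (37% in either). *Ccl25* and *Ccl28* had a log2 fold change above 1, as did 6.2% of all genes, and no ligand was below -1, where 0.441% of all genes stood. The median log2 fold change was 0.01 over the 4 ligands listed as T cell made, 0.72 over the 4 listed as epithelium made and 0.00097 over all genes tested. Fewer cells of a type and less RNA per cell cannot be told apart in these bulk libraries.

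**Figure D2:**
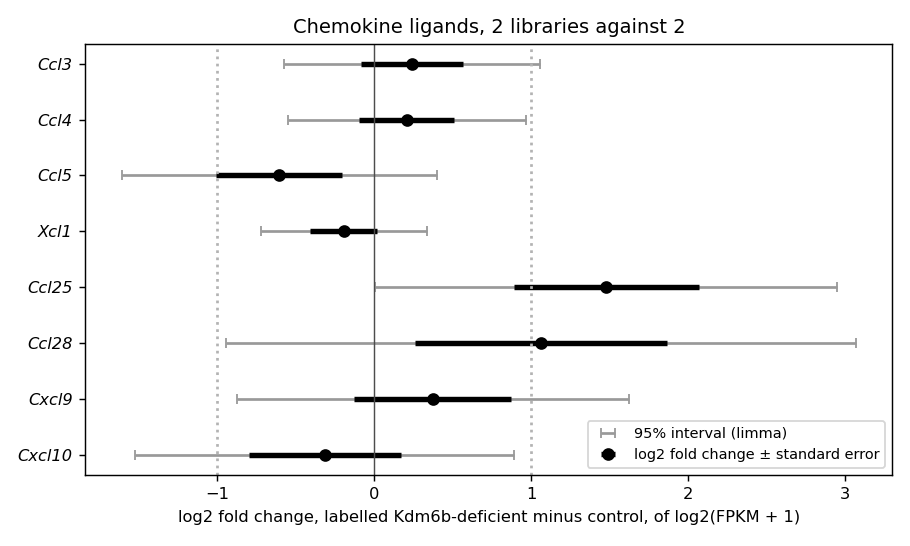
Log2 fold change (FC) of each chemokine ligand between the libraries labelled Kdm6b-deficient and the controls, on the scale of log2(FPKM + 1), with its standard error (thick bar) and 95% interval (thin bar) from limma, and dotted lines at 1 and -1. The interval of *Ccl25*, from 0.0071 to 2.95, lies just above 0 before any adjustment, and the other 7 intervals include 0.

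Among the ligands listed as T cell made, *Ccl5*, a chemokine stored and secreted by memory and cytotoxic T cells, had 4238 FPKM in control replicate 1 and 2612 FPKM in control replicate 3. It had 2783 and 1725 FPKM in replicates 1 and 3 labelled Kdm6b-deficient. The groups overlapped, because replicate 1 labelled Kdm6b-deficient was above control replicate 3, and the means were 3425 ± 1150 FPKM (SD, n = 2) and 2254 ± 748 FPKM (SD, n = 2). Its log2 fold change was -0.60 (SE 0.40, limma adjusted p = 0.763). Within a replicate number *Ccl5* labelled Kdm6b-deficient was 0.66 of the control, for both replicate 1 and replicate 3, and replicate 3 was 0.62 of replicate 1 in either group. The T cell markers were likewise highest in control replicate 1 and, for 9 of 10, lowest in replicate 3 labelled Kdm6b-deficient, and *Ccl5* amounted to 73.8% and 56.4% of their summed FPKM in the controls and to 62.1% and 53.1% in the libraries labelled Kdm6b-deficient. These ratios overlapped between the groups. With an epithelial score, the mean log2(FPKM + 1) of the epithelial markers, as a covariate the log2 fold change of *Ccl5* was 0.05, and leaving out 1 library put it between -0.95 (without control replicate 3) and -0.25 (without control replicate 1).

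*Ccl3* and *Ccl4*, the genes of the inflammatory chemokines MIP-1α and MIP-1β, kept nearly the same ratio in every library. *Ccl4* (Entrez 20303, chromosome 11) had 125 and 77.5 FPKM in control replicates 1 and 3, and 136 and 95.1 FPKM in the corresponding libraries labelled Kdm6b-deficient. For *Ccl3* (Entrez 20302, chromosome 11) the values were 55.2 and 33.1 FPKM against 62.2 and 41.4 FPKM. In both genes the replicate 1 libraries were higher than the replicate 3 libraries and the groups overlapped. The log2 fold changes were 0.24 for *Ccl3* (SE 0.33, limma adjusted p = 0.859) and 0.21 for *Ccl4* (SE 0.30, limma adjusted p = 0.869). Without control replicate 3 these became -0.12 and -0.13, and without replicate 1 labelled Kdm6b-deficient -0.05 for both, so their direction rests on these libraries. With the epithelial score as a covariate they were 0.86 (limma adjusted p = 0.125) and 0.78 (limma adjusted p = 0.12). The ratio of *Ccl4* to *Ccl3* stayed between 2.19 and 2.34 over the libraries. The RefSeq spans of the 2 genes (83647843 to 83649378 for *Ccl3*, 83648624 to 83664683 for *Ccl4*) overlap by 755 bases, whereas those of GENCODE M21 do not overlap and lie on opposite strands. Whether strand was used in counting is not given in the sources used here, and no run of 25 bases was shared between the GENCODE transcripts of either gene and those of any other gene.

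Measured beside the T cell markers, *Ccl3* and *Ccl4* took another order. *Ccl4* was 2.18% and 1.67% of the summed T cell marker FPKM in the controls and 3.04% and 2.93% in the libraries labelled Kdm6b-deficient, without overlap of the groups. *Ccl3* was 0.96% and 0.71% in the controls and 1.39% and 1.28% in those labelled Kdm6b-deficient, again without overlap. The summed T cell markers were themselves lower in both libraries labelled Kdm6b-deficient, and *Ccl25* also stood higher beside them without overlap. When all genes were instead scaled to the *Cd3* genes and *Ptprc*, which moved the median log2 fold change of all genes to 0.34, *Ccl3* had 0.62 and *Ccl4* 0.59 (adjusted p = 0.666 for each from limma). Under this scaling 35.1% of all genes tested were higher without overlap. Macrophages and dendritic cells, which the sort for TCRβ+ cells should remove, also make both ligands, and 13 of 13 myeloid markers tested had a positive log2 fold change with a median of 0.44. The part of these cells in the values of *Ccl3* and *Ccl4* was not tested.

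*Xcl1*, the gene of lymphotactin (Entrez 16963, chromosome 1, 164931644 to 164935522), had the smallest SE of the 8 ligands. It had 536 and 617 FPKM in control replicates 1 and 3, and 553 and 457 FPKM in the pair labelled Kdm6b-deficient, which overlapped with the controls. The log2 fold change was -0.19 (SE 0.21, 95% interval -0.72 to 0.33, adjusted p = 0.834 from limma). It was -0.06 without replicate 3 labelled Kdm6b-deficient, and 0.19 under the scaling to the *Cd3* genes and *Ptprc*, where the median of all genes was 0.34. Unlike *Ccl3*, *Ccl4* and *Ccl5*, it was not lower in control replicate 3 than in control replicate 1. Beside the T cell markers *Xcl1* was 9.34% and 13.3% of their summed FPKM in the controls and 12.3% and 14.1% in the libraries labelled Kdm6b-deficient.

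*Ccl25*, the ligand of the gut-homing receptor CCR9 (Entrez 20300, chromosome 8, 4325205 to 4360020), reached 39.7 and 95.5 FPKM in control replicates 1 and 3. It had 106 and 284 FPKM in replicates 1 and 3 labelled Kdm6b-deficient. Both of these lay above both controls, but replicate 1 labelled Kdm6b-deficient exceeded control replicate 3 only slightly. The means were 67.6 ± 39.5 FPKM (SD, n = 2) and 195 ± 126 FPKM (SD, n = 2), and the log2 fold change was 1.48 (SE 0.59, unadjusted p = 0.0492 and adjusted p = 0.755 from limma). Within replicate 1 the library labelled Kdm6b-deficient had 2.67 times the control, and within replicate 3 it had 2.97 times. The log2 fold change was 0.86 without control replicate 1 and 0.77 without replicate 3 labelled Kdm6b-deficient, both below 1. It was 2.1 without control replicate 3 and 2.18 without replicate 1 labelled Kdm6b-deficient.

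The epithelial markers, like *Ccl25*, were lowest in control replicate 1 and, apart from *Reg3b* and *Reg3g*, highest in replicate 3 labelled Kdm6b-deficient. Of 22 epithelial markers 15 had a log2 fold change above 1 (6.2% of all genes), with a median of 1.25, 3 did not overlap between the groups, all higher (18.4% of all genes), and 0 passed an adjusted p of 0.05 in limma. *Ccl25* was 3.87% and 2.95% of the summed FPKM of the 20 markers without *Reg3b* and *Reg3g* in the controls and 3.66% and 3.54% in the libraries labelled Kdm6b-deficient, so these ratios overlapped. With *Reg3b* and *Reg3g*, the 2 markers of highest mean FPKM, included the ratios were 1.47% and 1.32% against 1.003% and 2.84%, which overlapped too. Relative to *Epcam* alone, the gene of an epithelial adhesion molecule, *Ccl25* was 42.0% and 41.6% in the controls and 56.6% and 62.0% in the libraries labelled Kdm6b-deficient, without overlap. *Epcam* was chosen after seeing the data, and its log2 fold change of 0.99 lay below the epithelial median of 1.25. The share of all genes without overlap in such a ratio was not computed. With an epithelial score as a covariate its log2 fold change was 0.25 (SE 0.24, limma adjusted p = 0.978).

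*Ccl28* (Entrez 56838, chromosome 13, 119623819 to 119654359) stood at 1.29 and 6.07 FPKM in control replicates 1 and 3 and 3.35 and 15.2 FPKM in the pair labelled Kdm6b-deficient. The replicate 3 libraries were the higher ones in both groups, which overlapped. Its log2 fold change was 1.06 (SE 0.80, limma adjusted p = 0.777), against 0.25 without control replicate 1 and 0.11 without replicate 3 labelled Kdm6b-deficient. It was 1.88 without control replicate 3 and 2.01 without replicate 1 labelled Kdm6b-deficient. Within a replicate number the library labelled Kdm6b-deficient had 2.60 and 2.51 times the control, and replicate 3 had 4.71 and 4.54 times the level of replicate 1. The library order of *Ccl28* was that of *Epcam*. Of the summed epithelial markers without *Reg3b* and *Reg3g* it was 0.13% and 0.19% in the controls and 0.12% and 0.19% in those labelled Kdm6b-deficient. With the epithelial score as a covariate the log2 fold change was -0.57 (SE 0.43, limma adjusted p = 0.938). The part of epithelial cells, which the sort for CD45+ TCRβ+ cells should remove, in the values of *Ccl25* and *Ccl28* was not tested. The epithelial score was lowest in control replicate 1 and highest in replicate 3 labelled Kdm6b-deficient, so it partly follows the label.

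**Figure D3:**
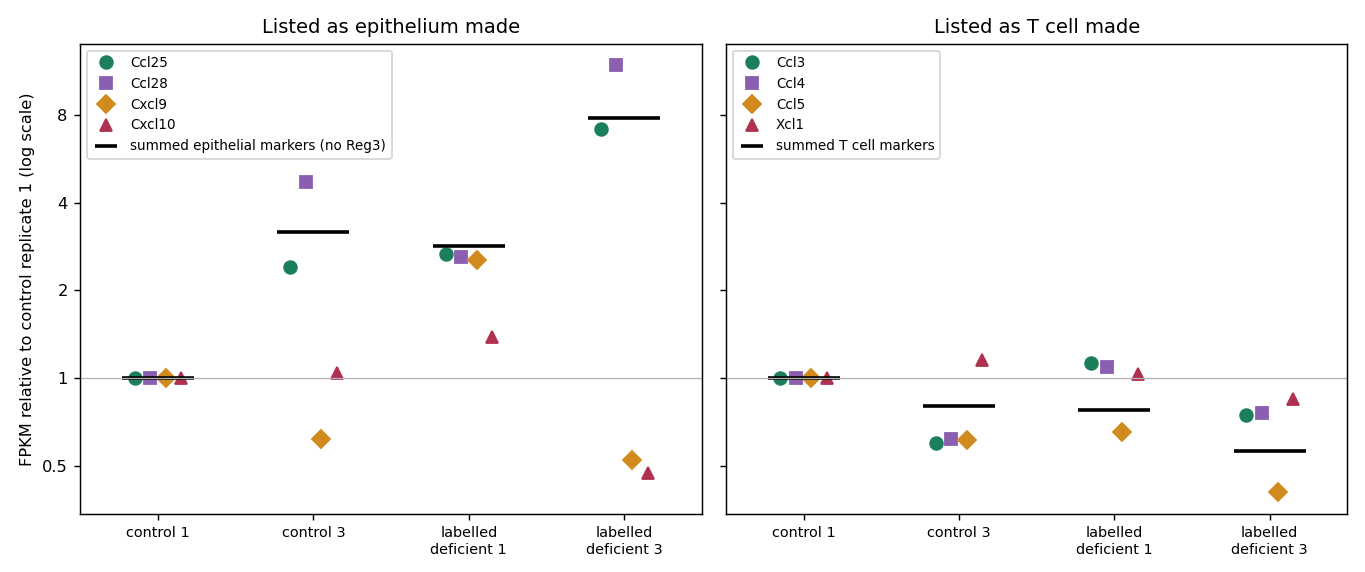
FPKM of each chemokine ligand relative to control replicate 1 (log scale) in the 4 libraries, with black bars for the summed epithelial markers without *Reg3b* and *Reg3g* (left) or the summed T cell markers (right). *Ccl25* and *Ccl28*, at 7.15 and 11.8 times control replicate 1 in replicate 3 labelled Kdm6b-deficient, lie around the epithelial bar (7.81 times) there. *Cxcl9* and *Cxcl10* fall far below it in that library. *Ccl3*, *Ccl4* and *Xcl1* lie above the T cell bar in both libraries labelled Kdm6b-deficient. In control replicate 3 *Ccl3* and *Ccl4* lie below that bar and *Xcl1* above it.

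*Cxcl9* and *Cxcl10* took another order over the libraries than 20 of the 22 epithelial markers, which were highest in replicate 3 labelled Kdm6b-deficient. *Cxcl10* (Entrez 15945, chromosome 5, 92346638 to 92348889) stood at 36.3 and 37.8 FPKM in the controls and 50.3 and 17.2 FPKM in replicates 1 and 3 labelled Kdm6b-deficient. The controls lay close together, between the 2 libraries labelled Kdm6b-deficient. The log2 fold change was -0.31 (SE 0.48, limma adjusted p = 0.877). Without replicate 1 labelled Kdm6b-deficient it was -1.06, and without replicate 3 of that label it was 0.43, so its direction rests on these libraries. The antimicrobial lectin genes *Reg3b* (890 and 2000 FPKM against 3695 and 899 FPKM) and *Reg3g* (781 and 1976 FPKM against 3974 and 1081 FPKM), the other two epithelial markers, were highest in replicate 1 labelled Kdm6b-deficient, as *Cxcl9* and *Cxcl10* were. Which cells made *Cxcl9* and *Cxcl10* was not tested.

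*Cxcl9* (Entrez 17329, chromosome 5, 92321331 to 92328079) was near the filter, with 1.05 and 0.65 FPKM in the controls and 2.67 and 0.55 FPKM in the pair labelled Kdm6b-deficient. As for *Cxcl10*, replicate 1 labelled Kdm6b-deficient was the highest and replicate 3 of that label the lowest. Its log2 fold change of 0.37 (SE 0.50, limma adjusted p = 0.858) was 0.53 with a pseudocount of 0.1 and -0.25 without replicate 1 labelled Kdm6b-deficient. *Ifng*, the gene of interferon γ, had 23.3 and 13.5 FPKM in the controls and 51.2 and 4.53 FPKM in replicates 1 and 3 labelled Kdm6b-deficient, the same order of libraries as *Cxcl9*. Of 20 interferon γ response genes, 17 were lowest in replicate 3 labelled Kdm6b-deficient and 11 were highest in replicate 1 of that label, where 32.5% and 20.2% of all genes tested had their lowest and highest values. The T cell markers were lowest in the same library for 9 of 10. The summed FPKM of markers of other T cell subsets, such as *Cd4*, stood in the library order of *Cxcl9* and *Ifng*. The part of either set of markers in these values was not tested. Groups without overlap, found for 37% of all genes, were found in this list for *Irf1*, *Irgm2* and *Nlrc5*, which were lower under the Kdm6b-deficient label, and for *Gbp5* and *Ciita*, which were higher, all 5 being named after their values were seen. Of this list 0 genes passed limma, and the median log2 fold change was -0.21. Among the highest of its genes were the immunoproteasome genes *Psmb8* (421 and 361 FPKM against 406 and 241 FPKM) and *Psmb9* (212 and 206 FPKM against 218 and 171 FPKM), with groups that overlapped.

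**Figure D4:**
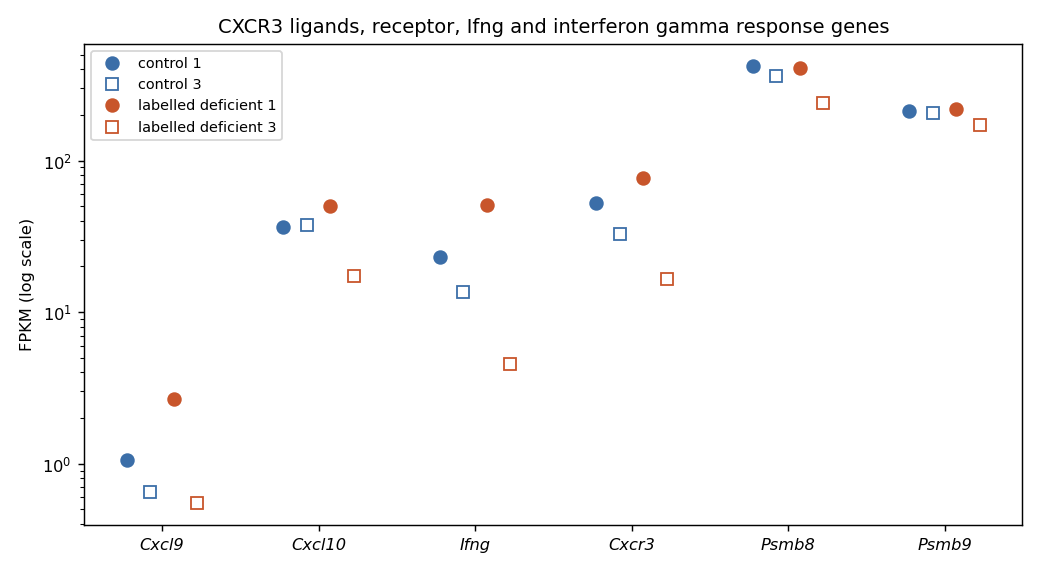
FPKM (log scale) of *Cxcl9* and *Cxcl10*, of *Ifng* and the receptor gene *Cxcr3*, and of the interferon γ response genes *Psmb8* and *Psmb9* in the control libraries (blue) and the libraries labelled Kdm6b-deficient (orange), filled for replicate 1 and open for replicate 3. Replicate 3 labelled Kdm6b-deficient is the lowest library for all 6 genes.

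The receptors of these ligands were read beside them. *Ccr9*, the receptor of CCL25, had 63.3 FPKM in each control and 38.3 and 22.9 FPKM in the pair labelled Kdm6b-deficient, a log2 fold change of -1.07 (adjusted p = 0.755 from limma) in the direction opposite to that of *Ccl25*. *Ccr1*, a receptor of CCL3 and CCL5, had 13.0 and 7.40 FPKM against 19.7 and 12.7 FPKM. *Ccr3*, best known from eosinophils, had 0.77 and 0.76 FPKM in the controls and 4.50 and 5.30 FPKM in the pair labelled Kdm6b-deficient, without overlap (log2 fold change 1.74, adjusted p = 0.755 from limma). *Ccr3* reached the filter of 1 FPKM only through the libraries where it was high, so that it had to differ. *Ccr10*, the receptor of CCL28, was at most 0.21 FPKM and was not tested, and *Xcr1* was not analysed here. *Cxcr3*, the receptor of CXCL9 and CXCL10, had 52.3 and 32.9 FPKM in the controls and 77.2 and 16.4 FPKM in replicates 1 and 3 labelled Kdm6b-deficient. The library order of *Cxcr3* was that of *Cxcl9* and *Ifng*. Of 14 chemokine receptor genes tested, 1 (*Ccr3*) was higher and 1 (*Ccr9*) lower in both libraries labelled Kdm6b-deficient (18.4% and 18.6% of all genes), with a median log2 fold change of -0.01 and 0 passing limma.

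Among the 27 other chemokine ligand genes with a value, 18 were tested, and 7 of them were higher and 0 lower in both libraries labelled Kdm6b-deficient (18.4% and 18.6% of all genes), with a median log2 fold change of 0.38. Of the 13 myeloid markers tested 9 were higher in both of these libraries, and their part in the values of these ligands was not tested. None of these passed limma (0 genes, and 2 at an unadjusted p under 0.05). One of the 7, *Ccl17* (0.36 and 0.75 FPKM in the controls, 6.41 and 4.53 FPKM in those labelled Kdm6b-deficient, named after its values were seen), passed the filter only through the libraries where it was high and is also among those 2. *Ccl6* and *Ccl9*, which lie between *Ccl5* and *Ccl4* on chromosome 11, had log2 fold changes of 1.44 and 1.12. *Ccl6*, a ligand of CCR1 made by myeloid cells, had 11.6 and 36.5 FPKM in the controls and 41.3 and 81.0 FPKM in those labelled Kdm6b-deficient, and the related *Ccl9* had 3.83 and 9.51 FPKM against 9.36 and 22.2 FPKM. For *Ccl6* the libraries stood in the order of *Ccl25*, whereas *Ccl9* overlapped between the groups. *Cxcl16*, the ligand of CXCR6, had 30.5 and 16.4 FPKM in the controls and 59.0 and 33.8 FPKM in the pair labelled Kdm6b-deficient, a log2 fold change of 0.96. The neutrophil chemokine gene *Cxcl2* had 41.9 and 47.5 FPKM against 59.9 and 51.5 FPKM, and *Cxcl1* had 25.7 and 11.9 FPKM against 15.6 and 11.7 FPKM. The ligand genes *Pf4*, *Ccl2*, *Cx3cl1* and *Ccl24* were between 3.01 and 16.6 FPKM in all libraries, with groups that overlapped.

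Products that T cells release together with chemokines were dominated by granzymes. Of 12 such genes tested, *Tnfsf14* (LIGHT, named after its values were seen) was higher and *Gzmb* lower in both samples of the Kdm6b-deficient label (18.4% and 18.6% of all genes), and 11 had a negative log2 fold change, with a median of -0.22, where all 10 T cell markers were negative with a median of -0.52. *Gzmb*, the gene of granzyme B, had 3378 and 2488 FPKM in the controls and 1515 and 1279 FPKM in those labelled Kdm6b-deficient. *Gzma*, at 17390 and 11061 FPKM against 11316 and 8837 FPKM, was highest and lowest in the same libraries as *Gzmb* but overlapped between the groups, and *Fasl* had 134 and 75.4 FPKM against 116 and 57.4 FPKM. Of 17 immediate early genes, which T cells switch on within minutes of stimulation and tissues during dissociation, *Fos*, *Ier2* and *Zfp36* were higher and *Junb*, *Nr4a2*, *Nfkbia* and *Tnfaip3* lower in both libraries labelled Kdm6b-deficient, shares near the 18.4% and 18.6% of all genes, those outside the 3 highest genes being named after their values were seen. The highest by mean over all libraries were *Junb* (1644 and 1413 FPKM in the controls, 1383 and 1188 FPKM in those labelled Kdm6b-deficient), *Fos* (427 and 733 FPKM against 750 and 1268 FPKM) and the NF-κB inhibitor gene *Nfkbia* (679 and 681 FPKM against 677 and 453 FPKM). None of the genes on these 2 lists passed limma.

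Other genes were compared with 4 of the ligands by the root mean square distance of log2(FPKM + 1), centred on each gene's own mean, over the 4 libraries. For *Ccl4* the nearest gene was *Ccl3*, at a distance of 0.03, followed by *Fbxl15* and *Prr5*. *Ccl5* was nearest to *Tpst2* (0.02), *Rcsd1* and *Banp*, and 47 genes lay within 0.1 of it. *Ccl25* was nearest to *Eps8l3* (0.01), *Septin5* and a predicted transcript without a symbol. *Cxcl10* was nearest to *Map3k8* (0.04), *Ifi27l2a* and *Klrg1*, and only 2 genes lay within 0.1. With 4 libraries such likeness is a description of their order.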

How the data were processed

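RNA-seq was analysed in 4 libraries of sorted TCRαβ+CD8αα+ IELs. HISAT and Bowtie2 (2.2.5 in the submitters' processing notes) were used by the authors for mapping to mm10, and RSEM (1.2.8) for quantification. The deposited values are FPKM with 2 decimals, already scaled by the authors to transcript length and mapped fragments, so no read counts were tested. Entrez identifiers were matched to RefSeq of GRCm38.p6 (18467 of 19339). Group means of log2(FPKM + 1) were compared for 12009 genes that reached 1 FPKM in 2 or more libraries. The test was limma 3.58.1 (eBayes with a trend, R 4.3.3) with Benjamini-Hochberg adjustment over all genes tested. It was first run on simulated data with independent noise and larger changes than those of the 8 ligands. That run does not bear on changes of the size seen here. Fold changes on this scale understate those of low genes. Motifs and tables were handled in Python 3.11.15 with pandas 2.3.3 and numpy 2.4.6. P-values measure the spread between pools. Depth was used only as a ratio between libraries, and no counting error was computed. The ligands and lists were chosen with earlier results of these data known. Named genes are the 8 ligands, their receptors, other ligands with a mean of at least 5 FPKM, the 3 genes of highest mean FPKM in each other list, and the 3 genes nearest in pattern (also at least 5 FPKM). Some genes that this rule names are not reported here. *Kdm6b*, *Ifng*, *Cd8b1*, *Cd4* and *Epcam* were named beside them. Alternatives were the pseudocount, the filter, scalings, the replicate block, no trend, an epithelial score as covariate and leaving out each library. The score and sums without *Reg3b* and *Reg3g*, and ratios to *Epcam*, were chosen after seeing the data. Single-cell RNA-seq and CUT&Tag-seq were not analysed here.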

Additional observations from a re-analysis of the deposited data

How the results depend on the processing

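Total read numbers are not known for these FPKM values, and 2 pools per group limit every test. Log2 fold changes above 1 or below -1 were found for 797 genes (744 higher), and for 1381 (1203 higher) with a pseudocount of 0.1, 655 (558 higher) after quantile normalization, 1407 (1381 higher) after scaling to the *Cd3* genes and *Ptprc*, 496 (372 higher) with an epithelial score as a covariate, 473 (362 higher) with that score without *Reg3b* and *Reg3g* (chosen after seeing the data), and 364 to 1577 without 1 library (364 without control replicate 1, 434 without replicate 3 labelled Kdm6b-deficient, 1419 without control replicate 3 and 1577 without replicate 1 labelled Kdm6b-deficient). The 2 epithelial scores left limma 119 and 102 genes called, against 0 (642 at an unadjusted p under 0.05). The *Cd3* and *Ptprc* scaling moved the median of all genes to 0.34. Under it the groups of 3 of 8 ligands (*Ccl3*, *Ccl4* and *Ccl25*, all higher) did not overlap, as for 38.4% of all genes (35.1% higher), and *Xcl1* (0.19) and *Cxcl10* (0.0508) took the other sign while lying below that median. With the first score *Ccl5* (0.0475), *Ccl28* (-0.57) and *Cxcl10* (0.24) changed sign, and with the second they were 0.0162, -0.50 and 0.30. The first score also moved *Ccl3* to 0.86, *Ccl4* to 0.78 and *Cxcl9* to 1.03. Leaving out 1 library gave 3 to 6 of 8 ligands without overlap, where 57.5% to 78.6% of all genes did not overlap, and log2 fold changes of -0.12 to 0.60 for *Ccl3*, -0.13 to 0.55 for *Ccl4*, -0.25 to 0.997 for *Cxcl9*, -1.06 to 0.43 for *Cxcl10*, 0.77 to 2.18 for *Ccl25*, 0.11 to 2.01 for *Ccl28*, -0.95 to -0.25 for *Ccl5* and -0.33 to -0.06 for *Xcl1*. The cause of these shifts was not tested. With a filter of 5 FPKM *Cxcl9* had no value.

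The sources used here do not say whether the same-numbered libraries share anything beyond the number. With 2 pairs, their deviations from the group means correlated across genes (Pearson 0.56, Spearman 0.54, genes not being independent replicates). With the replicate block limma called 1019 genes (8.49%) and 3 ligands, *Ccl25* (adjusted p = 5.1e-04), *Ccl28* (adjusted p = 0.0333) and *Ccl5* (adjusted p = 0.0379).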
